A study of Mus musculus with 4 samples.

Results

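The 10 genes described here encode transcription factors of mesenchymal cells, namely Runx1, Runx2, Sox4, Sox9, Twist1, Twist2, Prrx1, Tcf21, Snai2 and Hmga2. They were taken by name, as factors known from fibroblasts, smooth muscle, cartilage or bone, and make up 10 of the 31053 genes listed in the deposited matrices. The choice was made with earlier results of these data known. At least 1 molecule was detected for each of the 10, as for 20506 genes in all. Their levels were described by cell class and by day after wire injury of the mouse carotid artery. Per the study, this deep injury removes endothelium and also disrupts the internal elastic lamina. Single-cell RNA-sequencing was performed on carotid arteries of C57BL/6 mice, male per the study's methods and labelled as 11 weeks old before injury. A single library came from uninjured vessels (day 0), and 1 each from vessels taken 3, 7 and 14 days later. Each pooled several carotids, and vessels with a thrombus had been left out. With 1 library per day there was no replicate and no test between days. A difference between days and a difference between libraries cannot be told apart, and each interval below covers counting error only.

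Each factor binds DNA and sets which genes a cell transcribes. Runx1 and Runx2 belong to the runt family, known for blood formation and for bone, respectively. Sox4 and Sox9 belong to the SRY-related family, and Sox9 is the master factor of cartilage. Twist1, Twist2 and Tcf21 are basic helix-loop-helix factors of embryonic mesenchyme that bind short sites called E-boxes. Prrx1 is a homeobox factor of limb mesenchyme and of many fibroblasts, Snai2 is a zinc finger repressor known for silencing epithelial cadherin, and Hmga2 is an embryonic chromatin protein that bends AT-rich DNA. In the vessel wall such factors are studied because medial smooth muscle cells and adventitial fibroblasts change state after damage.

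Hmga2 messenger RNA is a classical target of the let-7 microRNAs, so the letters that pair with their seed were looked up in its 3′ untranslated region. The sites are shown because Hmga2 had, of the 10 genes, the highest ratio between its highest and lowest day in fibroblast-like cells. The microRNA let-7a-5p is given first (RefSeq, GRCm38.p6, chr13:48538239-48538260, minus strand), with its seed, bases 2 to 8, in capitals. A total of 11 mature mouse microRNA names in RefSeq carry that seed. The 4 matches lie on the minus strand of chromosome 10 in GRCm39 with GENCODE vM39 annotation, at chr10:120200125-120200148, chr10:120198888-120198911, chr10:120198450-120198473 and chr10:120197592-120197615, in 5′ to 3′ order of the transcript. Capitals mark the 7 letters complementary to the seed.
let-7a-5p: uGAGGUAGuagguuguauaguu
Hmga2 site 1: gacattcaatttCTACCTCagcat
Hmga2 site 2: cactcctcaataCTACCTCtgaat
Hmga2 site 3: atttgcaaggaaCTACCTCcacac
Hmga2 site 4: caaaacacactaCTACCTCttaag
The untranslated region that holds them is 2987 bases long. That of Prrx1, 3387 bases long, held 1 such match, and those of the other 8 factors held none. A match of letters is a description, and mature microRNAs are not measured by this assay.

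The promoters shown are those of Runx1, Sox4 and Hmga2, which were called higher on at least 1 day after injury in fibroblast-like cells, below. For Hmga2 this was day 7 alone, a difference that rested on few cells. Prrx1 was called on day 14 alone, and its promoter is not shown. Each sequence is the 150 bases before the start site (RefSeq, GRCm38.p6), read 5′ to 3′ along the gene, all on the minus strand. Runx1 has 2 promoters in the table, at chr16:92826075-92826224 and chr16:92697330-92697479. That of Sox4 lies at chr13:28953700-28953849 and that of Hmga2 at chr10:120476470-120476619. Capitals mark matches to any of 6 short motifs, searched on both strands.
Runx1 promoter 1: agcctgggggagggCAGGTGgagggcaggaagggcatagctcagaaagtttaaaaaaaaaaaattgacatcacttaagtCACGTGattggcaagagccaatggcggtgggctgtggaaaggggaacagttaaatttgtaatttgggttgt
Runx1 promoter 2: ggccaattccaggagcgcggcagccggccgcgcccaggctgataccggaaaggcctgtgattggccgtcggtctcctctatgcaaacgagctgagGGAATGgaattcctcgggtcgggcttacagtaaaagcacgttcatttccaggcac
Sox4 promoter: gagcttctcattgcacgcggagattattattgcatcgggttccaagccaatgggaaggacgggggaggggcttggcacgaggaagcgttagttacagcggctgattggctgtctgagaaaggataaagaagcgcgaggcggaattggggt
Hmga2 promoter: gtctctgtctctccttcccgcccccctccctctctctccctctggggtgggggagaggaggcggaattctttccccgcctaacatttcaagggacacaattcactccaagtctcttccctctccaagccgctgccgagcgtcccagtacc
The E-box CANNTG was found in 47.7% of all 32817 promoter windows of this length, and the first Runx1 promoter held 2 of them. The TEAD core GGAATG was found in 7.58% of windows and once in the second Runx1 promoter. The Runx core TGTGGT was found in 8.4% of windows, the Sox core AACAAT in 5.31%, the AP-1 core TGANTCA in 4.24% and the TATA box TATAAA in 7.58%. None of the 6 sets of letters was in the windows shown for Sox4 and Hmga2, which says nothing about the factors that bind there. In total 8 of the 10 factors had a promoter in the table, and the promoters of Sox9 and Snai2 were not matched.

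From the 4 libraries, in order of day, 281, 1403, 2693 and 1029 cells were kept of 333, 1689, 3001 and 1138 barcodes. Over all barcodes, before filtering, the libraries held 2672722, 18989081, 27973418 and 13329564 unique molecular identifiers (UMIs, which count captured RNA molecules). Barcodes were shared between libraries: 152 between days 0 and 3, which is 45.6% of the day 0 barcodes, 64 between days 7 and 14, and 1 between days 3 and 7. The shallower copy of each such pair was left out wherever it held less than 0.2 of the UMIs of the other copy. Clusters were named by resemblance to marker genes, and the fibroblast-like class held 199, 117, 143 and 467 cells on days 0, 3, 7 and 14. The smooth muscle-like class held 12, 99, 61 and 73 cells, and the endothelial-like class 6, 40, 57 and 18. All 11 fibroblast markers stood at 50 or more UMIs per 1000000 UMIs of the class (CPM) in fibroblast-like cells of each day, and 9 or 10 of 10 smooth muscle markers did so in smooth muscle-like cells. Depth was uneven. Fibroblast-like cells with over 30000 UMIs numbered 0, 70, 66 and 47, and on day 3 they supplied 89.5% of the UMIs of the class. Fibroblast-like cells whose barcode was also present in another library numbered 94, 35, 30 and 1. Values without the deep or the shared cells are therefore given beside those differences of the 10 factors between days in fibroblast-like cells that were lost without them.

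The factors fell into those nearly absent from immune cells and those present there. Over all days, 97.2% to 100% of the UMIs of Sox9, Twist1, Twist2, Prrx1, Tcf21 and Snai2 in named cells came from the non-immune classes (fibroblast-like, endothelial-like and smooth muscle-like), and 94.4% of those of Hmga2. For Sox4 this share was 81.9%. For Runx1 it was 29.7% and for Runx2 22.1%, so most molecules of both runt factors were found in immune-like cells. Levels are given as CPM of the class with exact Poisson 95% intervals.

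**Figure D1:**
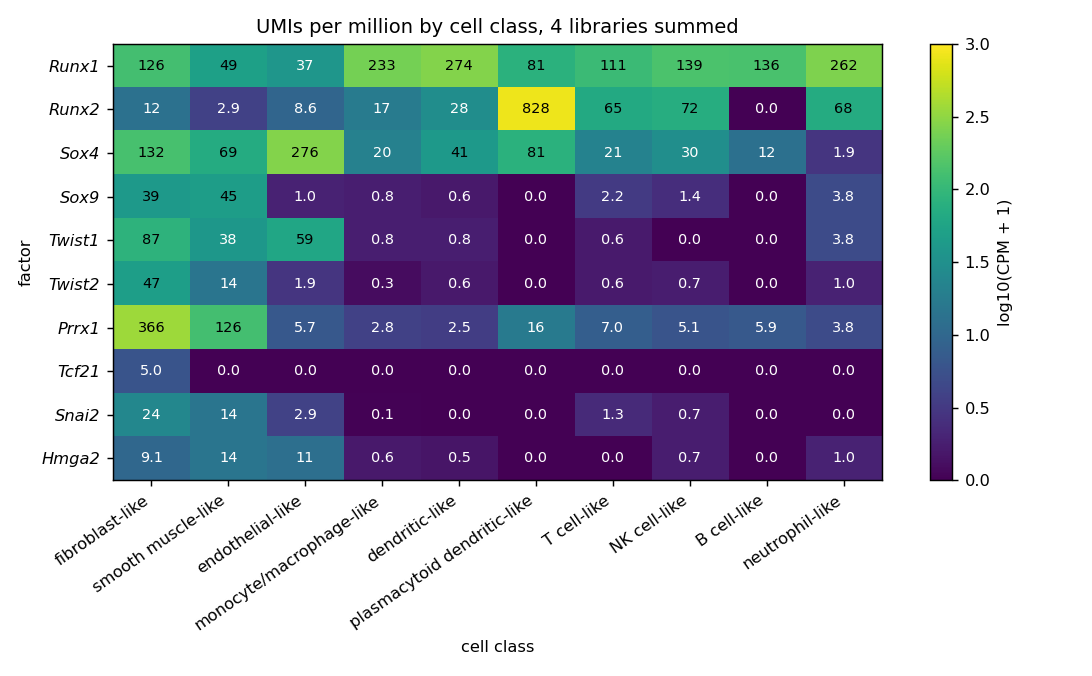
Level of each factor (rows) in each cell class (columns) with the UMIs of the 4 libraries summed; numbers are CPM and colour is log10(CPM + 1). Prrx1, Twist1 and Twist2 are highest in fibroblast-like cells, Sox4 in endothelial-like cells (276 CPM), Runx2 in plasmacytoid dendritic-like cells (828 CPM) and Runx1 in dendritic-like cells (274 CPM).

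Runx1 was highest in dendritic-like cells, at 274 CPM (261 to 287), and in neutrophil-like cells, at 262 CPM (232 to 295), and the intervals of these neighbours overlapped. It stood at 233 CPM (226 to 240) in monocyte/macrophage-like cells. NK cell-like, B cell-like and T cell-like cells had 139, 136 and 111 CPM. The fibroblast-like class as a whole had 126 CPM (121 to 131), whereas smooth muscle-like cells had 49.1 (43.3 to 55.4) and endothelial-like ones 37.2 (26.4 to 50.8). Within monocyte/macrophage-like cells Runx1 had 174, 190, 256 and 254 CPM on days 0, 3, 7 and 14, the first from 11 cells. The intervals of days 3 and 7 did not overlap (179 to 201 and 247 to 266).

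Runx2, the factor of bone-forming cells, had its highest level in plasmacytoid dendritic-like cells, at 828 CPM (675 to 1005). That class held 11 cells, and 10 of them carried the 102 Runx2 UMIs. NK cell-like, neutrophil-like and T cell-like cells followed at 72.2, 68.2 and 65.3 CPM with overlapping intervals. Dendritic-like cells had 28.4 CPM and monocyte/macrophage-like cells 16.9. Fibroblast-like cells had 12.1 CPM (253 UMIs), and the 44 B cell-like cells had no Runx2 UMI, which allows up to 17.8 CPM.

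Over all days pooled, Sox4 was at 276 CPM (245 to 310) in endothelial-like cells, against 133 CPM in fibroblast-like and 69.0 in smooth muscle-like cells, but 263 of the 290 endothelial-like UMIs were from day 7. On day 14 the endothelial-like level was 41.8 CPM (5.06 to 151), from 2 UMIs, below the 177 CPM (168 to 186) of fibroblast-like cells. Neutrophil-like cells held 2 Sox4 UMIs, or 1.92 CPM. In monocyte/macrophage-like cells Sox4 stood at 236 CPM on day 0 (38 UMIs in 7 of 11 cells) and at 8.52, 24.7 and 12.6 CPM on days 3, 7 and 14. T cell-like cells had 207 CPM on day 0 (22 UMIs in 7 of 16 cells) and 2.67, 19.0 and 0 CPM afterwards. The day 0 values of both classes rest on few cells.

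Among the factors restricted to non-immune cells, Prrx1 had 366 CPM in fibroblast-like cells, 126 in smooth muscle-like cells and 5.72 in endothelial-like cells. Twist2 followed the same order at 47.4, 13.7 and 1.91 CPM, and Snai2 at 23.5, 13.5 and 2.86 CPM. Twist1 had 87.1 CPM in fibroblast-like, 59.1 in endothelial-like and 38.2 in smooth muscle-like cells. However, 25 of the 62 endothelial-like UMIs lay in 1 cell, so that the order of the endothelial-like and smooth muscle-like classes rests on it. Sox9 was at 45.5 CPM (39.9 to 51.6) in smooth muscle-like and 39.3 CPM (36.7 to 42.1) in fibroblast-like cells over all days pooled, but the order turned between days. It was higher in smooth muscle-like cells on day 3, at 65.8 against 34.5 CPM, and higher in fibroblast-like cells on days 7 and 14, at 74.1 against 34.7 and 29.0 against 8.88 CPM, with intervals apart on each of these days. In endothelial-like cells 1 Sox9 UMI was found. All 104 Tcf21 UMIs of named cells were in the fibroblast-like class. Pooled over days, Hmga2 had 13.5 CPM (10.6 to 17.0) in smooth muscle-like, 11.4 (5.91 to 20.0) in endothelial-like and 9.06 (7.81 to 10.4) in fibroblast-like cells. Its order turned too, with 21.6 CPM in smooth muscle-like against 4.77 in fibroblast-like cells on day 3 and 10.2 against 34.0 on day 7. The turn on day 7 was lost without shared barcodes, at 8.38 CPM (3.37 to 17.3) against 4.66 (2.33 to 8.33). It was also lost in cells up to 30000 UMIs, at 12.2 CPM (4.90 to 25.1) against 9.46 (4.33 to 18.0).

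Fibroblast-like cells after injury carried more Runx1 and Sox4 on each day, more Sox9 and Hmga2 on day 7 and more Prrx1 on day 14. Neither day 3 difference was called without cells over 30000 UMIs or without shared barcodes, and Hmga2 on day 7 fell short in both cases. A gene was called higher or lower when its CPM with 10 added differed at least 2-fold and both sums together held at least 20 UMIs. Of the 9 factors that could be assessed on day 3, 2 were higher than on day 0 (Runx1 and Sox4), against 4.52% of all genes assessed. On day 7 there were 4 of 9 (Runx1, Sox4, Sox9 and Hmga2), against 4.99%, and on day 14 there were 3 of 9 (Runx1, Sox4 and Prrx1), against 2.44%. None was lower on any of these days, against 4.33%, 3.76% and 1.6% of all genes. Because the factors were chosen with earlier results of these data known, the shares of all genes are given as a description and not as a test. The median log2 ratio of the assessed factors was 0.43, 0.66 and 0.70 on days 3, 7 and 14, whereas that of all genes was -0.03, 0.02 and -0.01. Tcf21 on days 3 and 7 and Hmga2 on day 14 had too few UMIs to be assessed against day 0. From day 3 to day 7, Sox4 and Hmga2 were higher, 2 of 9 against 1.56% of genes, and none was lower, against 0.607%. In cells with a barcode in 1 library only, and in cells up to 30000 UMIs, Hmga2 had too few UMIs to be assessed there. Runx1 was higher in both of these, and Runx2 and Prrx1 in the cells up to 30000 UMIs. From day 3 to day 14, Sox4 was higher, 1 of 10 against 3.53%, and none lower, against 2.62%. In cells up to 30000 UMIs, Runx1 and Prrx1 were higher as well. From day 7 to day 14, Sox9 and Hmga2 were lower, 2 of 10 against 2.02%, and none higher, against 1.6%. In cells with a barcode in 1 library only, neither of these was called and Runx1 was lower. In cells up to 30000 UMIs, Runx1 and Sox9 were lower and Hmga2 had too few UMIs to be assessed.

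**Figure D2:**
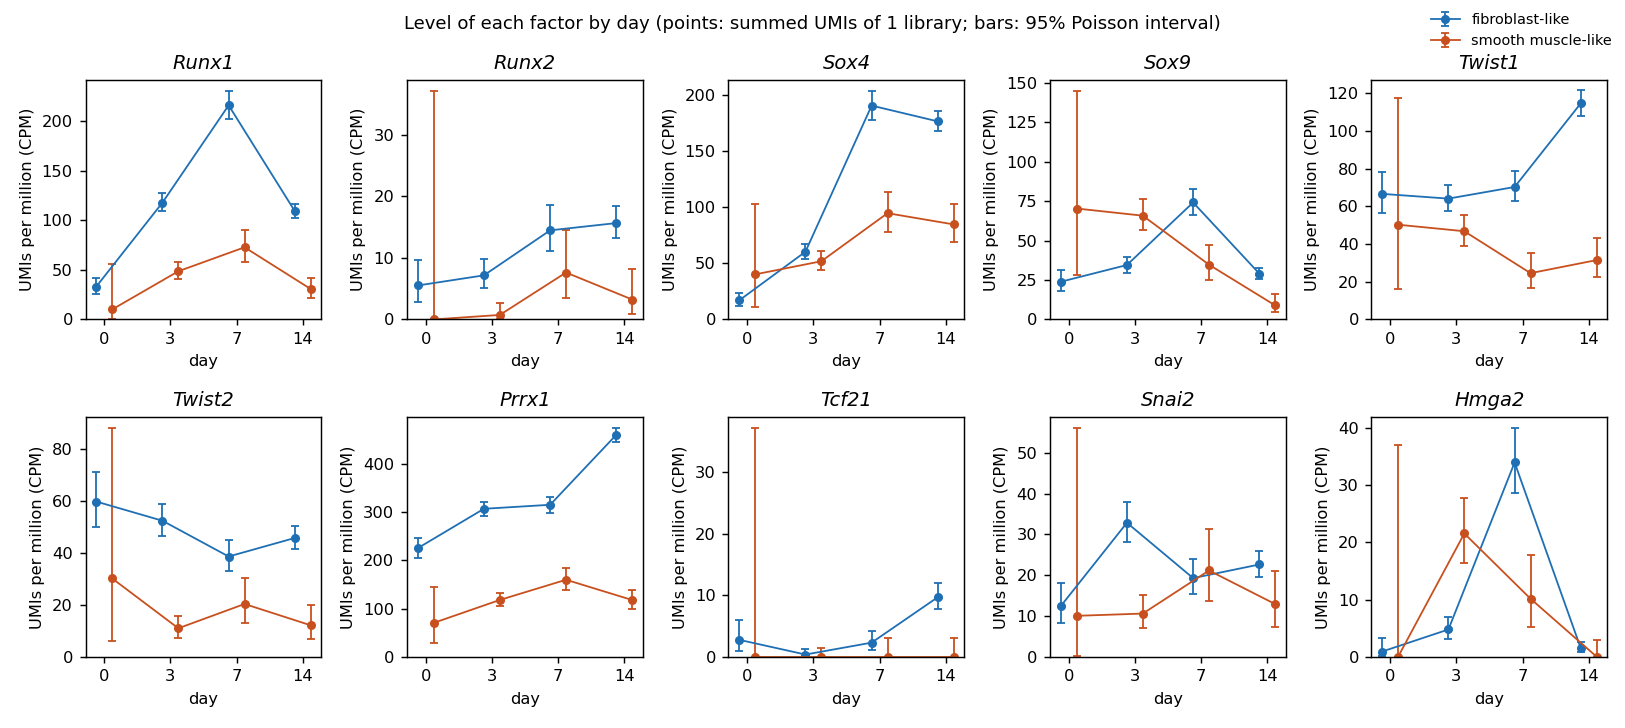
CPM of each factor by day in fibroblast-like (blue) and smooth muscle-like (orange) cells; each point is the summed UMIs of 1 library, bars are exact Poisson 95% intervals, and each panel has its own linear axis from 0. In fibroblast-like cells Runx1, Sox9 and Hmga2 peak on day 7, Sox4 stays high on day 14, and Prrx1 and Twist1 are highest on day 14; smooth muscle-like values of day 0 rest on 12 cells.

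In fibroblast-like cells Runx1 had 33.1 CPM on day 0 (72 UMIs), 118 on day 3 (642 UMIs), 216 on day 7 (941 UMIs) and 109 on day 14 (969 UMIs). Against day 0 this was 3.56-fold (2.79 to 4.61), 6.53-fold (5.14 to 8.42) and 3.30-fold (2.60 to 4.25) higher. The level was thus highest on day 7, and that of day 14 was 0.505 (0.461 to 0.553) of it. The molecules were spread over cells, since on day 7 Runx1 was found in 113 of 143 cells and the 2 cells with most held 47 and 44 of the UMIs. After each cell was thinned to 2000 UMIs, Runx1 was seen in 3.31% (1.23 to 7.08), 12.6% (7.07 to 20.3), 34.8% (26.8 to 43.6) and 18.0% (14.6 to 21.9) of fibroblast-like cells on days 0, 3, 7 and 14. Without thinning, the shares were 20.6%, 62.4%, 79.0% and 61.9%. Immune-like cells give no background for Runx1, which 42.6% of thinned neutrophil-like cells of day 7 carried. The thinned cells numbered 181, 111, 132 and 460, and 18, 6, 11 and 7 shallower cells were left out.

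The day 3 value of Runx1 came from the deep cells. In the 70 fibroblast-like cells over 30000 UMIs Runx1 had 126 CPM, and in the 47 others 47.0 CPM (31.0 to 68.4), an interval that overlaps that of day 0 (25.9 to 41.6). Without cells over 30000 UMIs the day 3 call was lost. It was also lost without shared barcodes, where Runx1 had 35.7 CPM (22.1 to 54.5) on day 0 and 77.0 CPM (66.0 to 89.3) on day 3. On day 7 the 77 cells up to 30000 UMIs had 308 CPM (274 to 345) and the deep ones 190. Immune transcripts moved with these days as well. The summed level of the 12 monocyte/macrophage markers in fibroblast-like cells was 31.7, 376, 250 and 187 CPM on days 0, 3, 7 and 14, and 6, 0, 0 and 1 of the markers were at 0. Ptprc, the common leukocyte antigen, had 0.459, 2.94, 12.4 and 1.35 CPM in the same cells. Smooth muscle markers summed to 471, 462, 1537 and 478 CPM there. The part of these transcripts in the Runx1 values was not tested.

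Runx2 in fibroblast-like cells was at 5.51, 7.16, 14.5 and 15.6 CPM on days 0, 3, 7 and 14, from 12, 39, 63 and 139 UMIs. Relative to day 0 the levels were 1.30 (0.666 to 2.73), 2.62 (1.40 to 5.35) and 2.84 (1.57 to 5.63). None of these passed with 10 CPM added. Of the 12 UMIs of day 0, all but 1 lay in cells with shared barcodes. The other cells had 1.70, 3.10, 15.2 and 15.7 CPM, and with the shared cells left out after naming Runx2 passed the rule on days 7 and 14, with log2 ratios of 1.11 and 1.13. With them left out before naming, the day 7 ratio was 0.98, short of the rule, and that of day 14 was 1.15. In thinned cells Runx2 was seen in 1.10%, 0.901%, 2.27% and 3.48%, and these intervals overlapped.

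Sox4 in fibroblast-like cells was at 17.0 CPM on day 0 (37 UMIs), 60.4 on day 3 (329 UMIs), 191 on day 7 (831 UMIs) and 177 on day 14 (1569 UMIs). Sox4 was thus 3.55-fold (2.53 to 5.14), 11.2-fold (8.08 to 16.1) and 10.4-fold (7.51 to 14.8) above day 0. Unlike Runx1, Sox4 on day 14 was at 0.926 (0.851 to 1.01) of its day 7 level. Thinned shares of cells were 1.66%, 5.41%, 24.2% and 24.1%, with intervals of days 7 and 14 apart from that of day 0. On day 7, Runx1 and Sox4 were the 2 factors with a thinned share above that of day 0 and intervals apart, against 2.78% of all genes. Without thinning 8 factors met this, against 63.6%. As background, 0 of 94 neutrophil-like cells of day 7 thinned alike had a Sox4 UMI, which allows a share of up to 3.85% by the exact binomial interval. Their median depth before thinning was 3040 UMIs, against 24971 in the fibroblast-like cells. In those neutrophil-like cells Sox9 was seen in 2.13%, Prrx1 and Twist1 in 1.06% each, and Twist2, Snai2, Tcf21 and Hmga2 in 0%. On day 3 the cells up to 30000 UMIs had 19.2 CPM (9.56 to 34.3) and the deeper ones 65.2, so that the day 3 difference came from deep cells. Without shared barcodes Sox4 had 25.5 CPM (14.3 to 42.0) on day 0 and 33.6 CPM (26.5 to 42.1) on day 3, and was not called. On day 7 both groups were alike, at 206 and 186 CPM.

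Sox9 in fibroblast-like cells stood at 23.9, 34.5, 74.1 and 29.0 CPM on days 0, 3, 7 and 14, from 52, 188, 323 and 258 UMIs. Day 7 was 3.10 (2.31 to 4.25) times day 0, and day 14 was 0.392 (0.331 to 0.463) of day 7. Both differences were called, and those of days 3 and 14 to day 0 were not. Without shared barcodes Sox9 had 56.3 CPM (47.2 to 66.7) on day 7 and 29.1 CPM (25.6 to 32.9) on day 14. That difference between days 7 and 14 fell short of the rule. On day 7, 70 cells held the 323 UMIs, of which 38 and 35 lay in 2 cells. The thinned shares were 3.87%, 0%, 7.58% and 4.13%. The interval of day 7 (3.69 to 13.5) was apart from that of day 3 (0 to 3.27) and overlapped those of days 0 and 14. On that day, cells up to and over 30000 UMIs had 72.5 and 74.6 CPM.

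Sox9 was also read in cells with cartilage transcripts. On day 14, 2 fibroblast-like cells held 2640 of the 2663 UMIs of Col2a1, the main cartilage collagen. One of them, with 39555 UMIs in all, carried 22 of the 258 Sox9 UMIs, and the other, with 4233 UMIs, carried none. Sox9 was at 26.7 CPM in the other 465 cells. On day 7, when Sox9 was highest, Col2a1 had 3 UMIs in the class and the 6 chondrocyte markers summed to 28.9 CPM. Most of that sum was Acan, the core protein of aggrecan, at 27.5 CPM.

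Twist1 and Twist2, close relatives, did not move alike in fibroblast-like cells. Twist1 had 66.6, 64.1, 70.2 and 115 CPM on days 0, 3, 7 and 14, and the ratio of day 14 to day 0 was 1.72 (1.44 to 2.06). Twist2 had 59.7, 52.3, 38.6 and 45.7 CPM, with ratios to day 0 of 0.876 (0.710 to 1.09), 0.646 (0.511 to 0.819) and 0.766 (0.627 to 0.940). Neither passed 2-fold on any day. The thinned share of cells with Twist1 was 8.84%, 8.11%, 8.33% and 16.7%, and that with Twist2 12.2%, 12.6%, 7.58% and 9.13%. For each gene the intervals of days 0 and 14 overlapped.

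Prrx1 in fibroblast-like cells was at 225, 307, 316 and 461 CPM on days 0, 3, 7 and 14, from 491, 1674, 1375 and 4095 UMIs. The ratio of day 14 to day 0 was 2.04 (1.86 to 2.25), at the limit of the 2-fold rule and lost by a small margin under some settings, and the ratios of days 3 and 7 were 1.36 (1.23 to 1.51) and 1.40 (1.26 to 1.55). The day 3 direction turned in the cells up to 30000 UMIs, which had 152 CPM (121 to 187), below day 0. Thinned shares were 34.3%, 36.9%, 47.7% and 54.3%, and the day 14 interval (49.7 to 59.0) was apart from that of day 0 (27.4 to 41.7). In cells of 1 library only, without the shared barcodes, Prrx1 had 175 CPM on day 0 and 258 and 345 CPM on days 3 and 7.

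Snai2 in fibroblast-like cells was at 12.4 CPM on day 0 (27 UMIs), 32.9 on day 3 (179 UMIs), 19.3 on day 7 (84 UMIs) and 22.6 on day 14 (201 UMIs). The ratio of day 3 to day 0 was 2.65 (1.76 to 4.13), or 0.94 on the log2 scale with 10 CPM added, short of the rule. In the 47 cells up to 30000 UMIs of day 3 it had 12.2 CPM (4.90 to 25.1), close to day 0, and 172 of the 179 UMIs lay in the deeper cells. Without the shared barcodes the day 0 level was 3.40 CPM, from 2 UMIs, and Snai2 then passed the rule on days 3, 7 and 14. Its thinned shares were 2.21%, 4.50%, 1.52% and 5.0%, with overlapping intervals.

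Tcf21, known from adventitial and cardiac fibroblasts, was near the limit of detection. It had 6, 2, 10 and 86 UMIs on days 0, 3, 7 and 14 in fibroblast-like cells, or 2.75, 0.367, 2.30 and 9.68 CPM. Day 14 was 3.51 (1.55 to 9.84) times day 0 and 26.4 (7.08 to 221) times day 3, and neither passed with 10 CPM added. Smooth muscle-like cells had no Tcf21 UMI on any day, which allows up to 0.571 CPM over the 4 libraries.

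Hmga2 in fibroblast-like cells was at 0.918 CPM on day 0 (2 UMIs), 4.77 on day 3 (26 UMIs), 34.0 on day 7 (148 UMIs) and 1.46 on day 14 (13 UMIs). The ratio of day 7 to day 0 was 37.0 (10.1 to 308), and that of day 14 to day 7 was 0.0431 (0.0224 to 0.0760). The day 7 level came from few cells. Of 143 cells, 14 had an Hmga2 UMI, and 2 cells with 40 and 37 UMIs held more than all the others together. By contrast, the 13 UMIs of day 14 lay in 13 cells with 1 each.

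The Hmga2 cells of day 7 were mostly very deep cells, and most had barcodes also present in another library. The 30 shared cells held 137 of the 148 UMIs, or 92.6%, a level of 68.6 CPM (57.6 to 81.1). The 113 others had 4.66 CPM (2.33 to 8.33), whose interval overlaps that of day 0 (0.111 to 3.32). Cells up to 30000 UMIs had 9.46 CPM (4.33 to 18.0). Hmga2 was not called on day 7 without the shared barcodes, nor without cells over 30000 UMIs. The differences between days 3 and 7 and between days 7 and 14 were lost in both cases too. Without shared barcodes Hmga2 had 0.442 CPM (0.0112 to 2.47) on day 3 and 1.47 CPM (0.780 to 2.51) on day 14. In cells up to 30000 UMIs these levels were 1.74 CPM (0.0441 to 9.70) and 1.24 CPM (0.567 to 2.36). On day 3, 1 cell of 202235 UMIs held 19 of the 26. The part of the shared barcodes in the day 7 level was not tested.

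**Figure D3:**
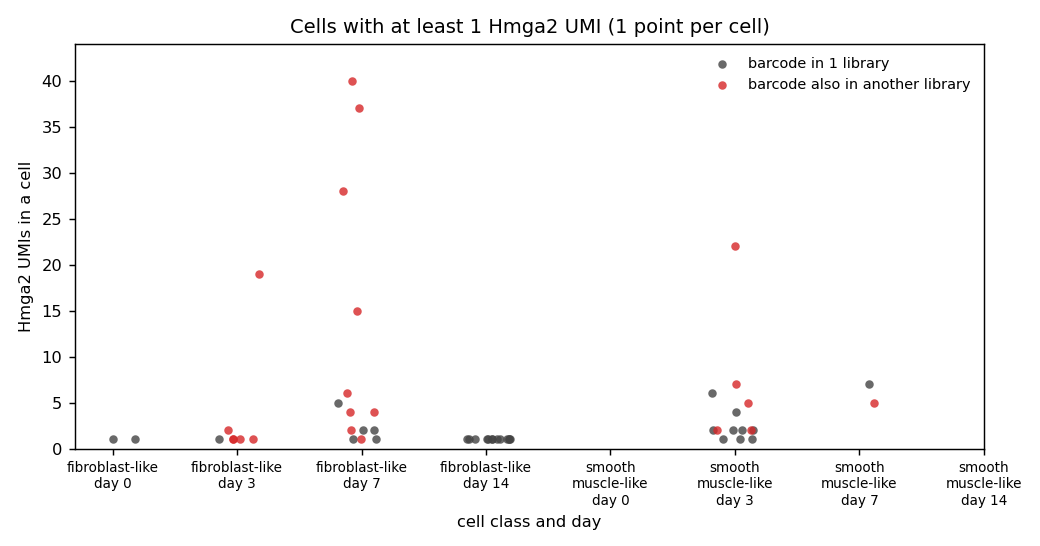
Hmga2 UMIs of each cell with at least 1 (vertical axis, linear) by class and day; red points are cells whose barcode was also in another library and grey points the others, with random sideways spread. On day 7 the fibroblast-like cells with 40, 37, 28 and 15 UMIs are red, and on day 14 all 13 cells have 1 UMI.

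In smooth muscle-like cells day 0 rested on 12 cells and no call against it is given. No factor was called between days 7 and 3, where 1.39% and 0.942% of genes were higher and lower. From day 3 to day 14, Sox9 and Hmga2 were lower, 2 of 8 factors assessed against 3.36% of all genes, and none was higher, against 1.93%. From day 7 to day 14, Runx1 and Sox9 were lower, 2 of 7 against 2.79%, and none was higher, against 0.953%. These counts changed under several other settings. Fibroblast markers summed to 4439, 8950, 15310 and 9403 CPM in smooth muscle-like cells of days 0, 3, 7 and 14, and the 10 smooth muscle markers to 40000, 23340, 20730 and 42680 CPM. The part of these shifts in the values of the factors was not tested.

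Sox9 in smooth muscle-like cells was at 70.3 CPM on day 0 (7 UMIs), 65.8 on day 3 (180 UMIs), 34.7 on day 7 (41 UMIs) and 8.88 on day 14 (11 UMIs). The ratio of day 14 to day 3 was 0.135 (0.0662 to 0.247). The day 3 UMIs lay in 27 of 99 cells, and 2 of these held 42 and 35. In the same class Acan was at 0, 57.0, 118 and 83.1 CPM, so the cartilage proteoglycan did not follow the order of Sox9. Col2a1 had at most 5 UMIs on any day.

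Hmga2 in smooth muscle-like cells had 0, 59, 12 and 0 UMIs on days 0, 3, 7 and 14, or 21.6 CPM on day 3 and 10.2 on day 7. With the floor of 3 counts for the class at day 14, the level was at least 8.90-fold lower than on day 3. The 59 UMIs lay in 14 cells, 1 of which held 22. Cells over 30000 UMIs held 53 of them, and the 61 others had 11.3 CPM (4.16 to 24.7) from 6 UMIs, too few to be assessed. The 12 cells with shared barcodes held 38, and the 87 others had 12.6 CPM (7.77 to 19.2). The day 0 count of 0 allows up to 30.1 CPM, so that no difference from day 0 was detectable at this depth.

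Runx1 in smooth muscle-like cells was at 10.0, 48.6, 72.8 and 30.7 CPM on days 0, 3, 7 and 14, the first from 1 UMI. Day 14 was 0.421 (0.280 to 0.624) of day 7. That direction turned when only cells with up to 10% mitochondrial UMIs were kept. The median mitochondrial share of smooth muscle-like cells was 5.425%, 10.81% and 5.869% on days 3, 7 and 14, so that of day 7 lay above this limit. Sox4 was at 40.2, 51.9, 94.8 and 84.7 CPM, and the ratio of day 7 to day 3 was 1.83 (1.41 to 2.36). On each of days 3 to 14 both factors were lower in smooth muscle-like than in fibroblast-like cells with intervals apart, except for Sox4 on day 3 (43.7 to 61.2 against 54.0 to 67.3). In the cells up to 30000 UMIs of day 3, Runx1 was at 39.7 CPM (24.6 to 60.6) in smooth muscle-like and 47.0 CPM (31.0 to 68.4) in fibroblast-like cells, intervals that overlap.

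Of the remaining factors in smooth muscle-like cells, Prrx1 was at 70.3, 118, 160 and 118 CPM and Twist1 at 50.2, 46.8, 24.5 and 31.5 CPM on days 0, 3, 7 and 14. Twist2 was at 30.1, 11.0, 20.3 and 12.1 CPM and Snai2 at 10.0, 10.6, 21.2 and 12.9. Runx2 had 0, 2, 9 and 4 UMIs. Their day 0 values rested on 7 UMIs or fewer each.

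In endothelial-like cells 3 factors could be compared between days 7 and 3. Sox4 was at 124 CPM on day 3 (25 UMIs in 2 cells) and 335 CPM on day 7 (263 UMIs in 22 cells), a ratio of 2.69 (1.78 to 4.23). Runx1 had no UMI on day 3 and 34 on day 7, at least 2.90-fold higher, and 2 of the 9 cells with a UMI held 14 and 7 of the 34. The 10 dendritic markers summed to 44.8 CPM on day 3 and 220.1 CPM on day 7 in this class, with Xcr1 and Clec9a at 0 on day 7, and the 12 monocyte/macrophage markers to 154 and 183 CPM. On day 14 the latter reached 4472 CPM. The part of these transcripts in the Runx1 values was not tested. Twist1 was lower on day 7, at 33.1 against 164 CPM, but 25 of the 33 UMIs of day 3 lay in 1 cell. Of all genes, 11.6% were higher and 5.75% lower in this comparison. Without cells over 30000 UMIs neither Runx1 nor Twist1 was called, and of the 3 only Sox4 was. Day 0 held 6 cells with no UMI of Sox4, Twist1 or Runx1, and the 5 Runx1 UMIs of day 14 were all in 1 cell.

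Non-immune cells were clustered again with the 10 factors kept out of the genes used, which gave 10 sub-clusters named here by their leading genes. Runx1 was highest in the 44 cells led by Tnc and Eln, matrix genes, at 340 CPM (280 to 410). Of these cells 24 were from day 7, when Runx1 was highest in fibroblast-like cells, and they held 98 of the 110 UMIs. Within day 7 they stood at 407 CPM (330 to 496), against 238 CPM (204 to 275) in the C1qtnf3 and Thbs4 cells and 232 CPM (212 to 254) in the Saa3 and Hp cells. On day 14 they had 180 CPM (82.2 to 341), from 9 UMIs, an interval that overlapped the 140 CPM (127 to 154) of the C1qtnf3 and Thbs4 cells. Over all days the cells led by Saa3 and Hp, acute-phase genes, had 187 CPM and those led by C1qtnf3 and Thbs4 had 159. It was lowest in the cells led by Isg15 and Ifit3, interferon-response genes, at 29.0 CPM (21.6 to 38.1), an interval that overlapped that of the Igfbp5 and Sema3c cells at 35.4 CPM (27.7 to 44.7). The Tnc and Eln cells had a median of 4927.5 UMIs. Sox9 stood at 68.1 CPM (42.7 to 103) in them, from 22 UMIs, and at 52.7 CPM (46.4 to 59.5) in the Saa3 and Hp cells.

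Sox4 was highest in the sub-cluster led by Cd93 and Pecam1, endothelial genes, at 290 CPM (257 to 326). It held 118 endothelial-like and 40 smooth muscle-like cells. The Tnc and Eln cells followed with 220 CPM and the C1qtnf3 and Thbs4 cells with 208 CPM, and their intervals overlapped. In the cells led by Igfbp5 and Sema3c, Sox4 stood at 154 CPM while Runx1 was at 35.4 CPM. Both were low in the cells led by AI507597 and Lamc3, of which 100 of 131 came from day 0, with 70.0 CPM of Runx1 and 29.8 of Sox4.

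The sub-clusters also split the cells of 1 day. On day 3, Runx1 and Sox4 had 36.5 and 27.0 CPM in the 48 Isg15 and Ifit3 cells. In the 42 Saa3 and Hp cells of that day they had 156 and 63.1 CPM, and in the 26 cycling cells, led by Hist1h2ap and Top2a, 94.9 and 82.8 CPM. Twist1 varied less, at 53.9, 59.6 and 88.0 CPM in the same 3 groups. The median depth of the Isg15 and Ifit3 cells over all days was 5292 UMIs, against 55775 and 54415 in the other two.

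**Figure D4:**
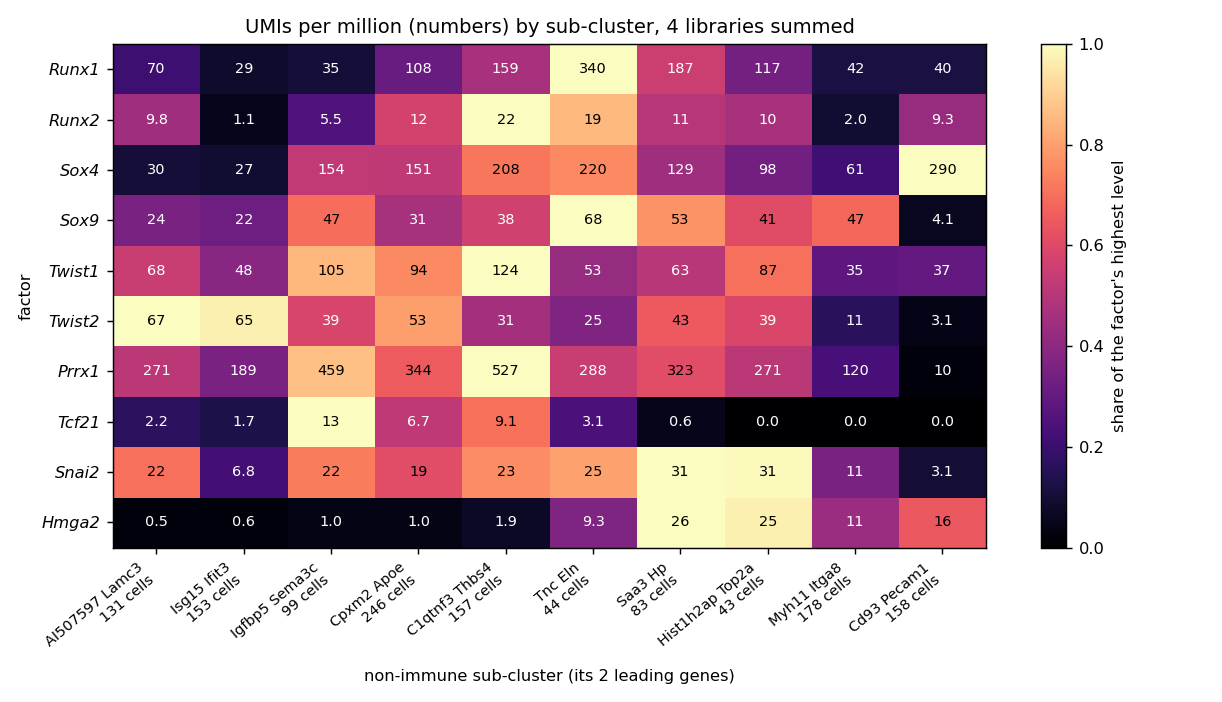
CPM of each factor (rows) in 10 non-immune sub-clusters (columns, with their 2 leading genes and cell numbers), 4 libraries summed; colour is the share of the highest value of the row. Runx1 peaks in the Tnc Eln cells, Sox4 in the Cd93 Pecam1 cells, Prrx1 and Twist1 in the C1qtnf3 Thbs4 cells, and Hmga2 in the Saa3 Hp and cycling cells.

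Prrx1 and Twist1 were highest in the C1qtnf3 and Thbs4 cells, present on days 7 and 14 alone, at 527 CPM (504 to 551) and 124 CPM (113 to 136). Runx2 was also highest there, at 21.8 CPM. Between days 7 and 14 of that sub-cluster Prrx1 was at 361 and 569 CPM, Twist1 at 60.4 and 140 CPM, and Runx1 at 238 and 140 CPM. Twist2 had the opposite place, with 66.7 CPM in the AI507597 and Lamc3 cells, 64.8 in the Isg15 and Ifit3 cells and 30.7 in the C1qtnf3 and Thbs4 cells. These Twist2 values pool the days, and the AI507597 and Lamc3 cells came mostly from day 0. Sub-cluster and day are therefore not separated in this order.

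Tcf21 was highest in the Igfbp5 and Sema3c cells, at 13.0 CPM (8.47 to 19.0), whose interval overlapped that of the C1qtnf3 and Thbs4 cells at 9.14 CPM. The Igfbp5 and Sema3c cells are also led by Pi16 and Dpp4, known markers of adventitial progenitor-like fibroblasts. Hmga2 was at 25.5 CPM in the Saa3 and Hp cells and 24.7 CPM in the cycling cells, and at 0.542 to 1.88 CPM in 5 fibroblast sub-clusters. The Tnc and Eln cells lay above that range, but from 1 Hmga2 UMI on each of days 0, 3 and 7. Fibroblast-like cells of day 7 held 98 of the UMIs of the Saa3 and Hp cells. Of these, 40 and 37 lay in 2 cells with shared barcodes, so that the level of this sub-cluster rests largely on them. In all, 5 factors were at least 2-fold above the level of all non-immune cells in at least 1 sub-cluster: Runx1, Runx2, Sox4, Tcf21 and Hmga2. This count is no result about the factors, since 44.3% of all genes with at least 20 UMIs passed the same rule, and 35.8% of those with at least the 104 UMIs of Tcf21.

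Genes known to work with these factors were read in fibroblast-like cells from fixed lists. Of 20 relatives and binding partners, 0 of 16 assessed were higher and 3 lower on day 3, 2 and 1 of 18 on day 7, and 0 and 0 of 18 on day 14. Over all genes the shares were 4.52%, 4.99% and 2.44% higher and 4.33%, 3.76% and 1.6% lower on these days. Id1, which blocks basic helix-loop-helix factors such as Twist1, was at 77.1, 16.2, 26.2 and 40.6 CPM on days 0, 3, 7 and 14, lower on days 3 and 7. Id3 was at 965, 440, 780 and 1126 CPM, lower on day 3. Scx, the tendon factor, had no UMI on day 0 and 20.9 CPM on day 7, at least 15.2-fold higher. Hmga1, the relative of Hmga2, was at 5.97 CPM on day 0 and 25.5 on day 7, a ratio of 4.27 (2.40 to 8.27). Without cells over 30000 UMIs, Id3 on day 3 and Hmga1 on day 7 were not called and Scx on day 7 had 15 UMIs, too few to be assessed. Without shared barcodes, Id3, Hmga1 and the day 7 difference of Id1 were not called.

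Of 22 other transcription factors of mesenchyme, 1, 2 and 1 were higher and 4, 4 and 3 lower on days 3, 7 and 14, of 19, 19 and 20 assessed. Over all genes 4.52%, 4.99% and 2.44% were higher and 4.33%, 3.76% and 1.6% lower. The median log2 ratio of the list was -0.59, -0.42 and -0.25, and that of all genes -0.03, 0.02 and -0.01. Heyl, a Notch target, was at 88.1, 6.24, 22.03 and 29.7 CPM on days 0, 3, 7 and 14, and Nr2f2 at 304, 83.1, 80.6 and 184 CPM. Gli1, a Hedgehog target, was at 42.7, 6.24, 5.97 and 19.2 CPM. Heyl was lower on each day, and Nr2f2 and Gli1 on days 3 and 7. Ebf2 was higher on day 14, at 88.3 against 26.6 CPM. Without cells over 30000 UMIs, Nr2f2 on both days and Gli1 on day 7 fell short of the rule, with log2 ratios of -0.94, -0.96 and -0.92. The calls of these 4 genes held without shared barcodes.

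Of 13 cartilage and bone genes, 1, 3 and 5 were higher and 1, 1 and 0 lower on days 3, 7 and 14, of 5, 6 and 10 assessed, against 4.52%, 4.99% and 2.44% higher and 4.33%, 3.76% and 1.6% lower of all genes. Spp1, which encodes osteopontin and is also made by macrophages, was at 0.459, 219, 538 and 9.003 CPM, from 1 UMI on day 0. Col2a1, Col10a1 and Ibsp had no UMI on day 0 and 300, 59.7 and 48.6 CPM on day 14. These values rest on single cells, since 1 cell held 526 of the 530 Col10a1 UMIs and 1 held 429 of the 432 Ibsp UMIs. Without the 2 cells with Col2a1, the 5 higher genes of day 14 became 1, Col10a1. One cell held 920 of the 1194 Spp1 UMIs of day 3 and 1 held 1034 of the 2346 of day 7, and without cells over 30000 UMIs Spp1 was at 33.1 and 68.3 CPM and still called. Of 7 cadherin and junction genes, 3, 2 and 2 of 3 assessed were higher and none lower, against the same shares of all genes. Cdh2, or N-cadherin, was at 5.51, 40.9, 69.5 and 25.0 CPM and Cdh11 at 45.0, 123, 220 and 227 CPM. Vim, the mesenchymal filament protein, was at 2366, 5667, 3937 and 2429 CPM and higher on day 3. Without cells over 30000 UMIs, Cdh2 and Vim on day 3 were not called, with log2 ratios of 0.91 and 0.47. Cdh1, the epithelial cadherin that Snai2 is known to repress, had 0, 1, 0 and 1 UMIs on days 0, 3, 7 and 14.

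Of 5 genes of the let-7 pathway and partners of Hmga2, 2 could be assessed, and Igf2bp2 was higher on day 3 at 25.7 against 6.43 CPM, where 4.52% of all genes were higher. It stood at 19.1 and 9.79 CPM on days 7 and 14. The day 3 difference was not called without shared barcodes (16.4 against 6.79 CPM), and without cells over 30000 UMIs it had 3 UMIs on day 3. Lin28a and Lin28b, which block let-7 maturation, had no UMI in fibroblast-like cells on any day.

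The genes whose pattern was most like that of each factor were found by Pearson's r of log2(CPM + 10) over 29 class-by-day sums. These sums share libraries, and r is given as a description. Prrx1 was most like Col6a1 (r = 0.965), Snai2 (0.961) and Nbl1 (0.960), and Snai2 was most like Prrx1, Mrc2 (0.949) and Tenm3 (0.948). Twist2 was most like Fam171b (0.982) and Cyp1b1 (0.979), and Twist1 most like Rgma (0.960), Kirrel and Dcbld2 (both 0.957). Sox9 was most like Morc4 (0.963), Pde1a (0.943) and Galnt16 (0.940).

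The factors with wider or sparser patterns had lower values. Runx1 was most like the leukocyte genes Slfn8 (0.789), Lsp1 (0.776) and Rassf2 (0.763). Hmga2 was most like Tcim (0.816) and Nav3 (0.787), Runx2 most like Gm5547 (0.822), Gramd1b (0.821) and Ttll3 (0.789), and Sox4 most like Gm14296 (0.805), Gtf2ird1 (0.772) and Nudcd1 (0.761). Tcf21 had too few UMIs to be ranked.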

How the data were processed

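The authors deposited UMI counts for each gene in each barcode, not normalized. Cell Ranger 3.0.2 stands in the file headers and another version in the study's methods. The build named by the submitters is a human one, so the mouse build used for counting is unclear and no coordinate rests on it. From these counts, barcodes with at least 200 genes and at most 20% mitochondrial UMIs were kept. Scrublet (scanpy 1.11.5) scored doublets. Because only 15 barcodes passed its automatic threshold, the highest scores were removed at 0.8% per 1000 barcodes (106 barcodes). Shallower copies of shared barcodes (214) were left out, a step chosen after seeing the data. After scaling each cell to 10000 and log transformation, Leiden clusters (leidenalg 0.10.2, resolution 1) were built on 2000 variable genes, the factors and lists kept out, with 30 components and 15 neighbours. Non-immune cells were clustered again at 0.5.

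Clusters were named from marker lists when at least 3 markers stood at 50 CPM or more, in at least 10% of cells and at least 3 times the lower quartile of clusters. A cluster stayed unnamed where another class had more markers among its 10 leading genes. The naming rule was changed after the clusters were seen: a cluster whose median depth was under 0.333 of its library's needed at least 1 marker of its own among those genes, and a class other than that with the most markers needed at least 3 markers and 2 leading ones. Of 36 clusters, those without a name held 654 cells, 61 of them in a cluster led by Meg3. Classes rebuilt in this way can differ from those of the study.

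UMIs were summed per class and day, with exact Poisson 95% intervals for levels, exact conditional binomial intervals for ratios and exact (Clopper-Pearson) intervals for shares. PCR copies are removed by UMIs, and intervals cover counting error only. A count of 0 was read as up to 3 counts. The summing and calling step was tested on simulated data. All 10 factors were named in every comparison, up to 4 genes past 2-fold per list, and 3 most alike genes per factor with at least 200 UMIs, of which some are not reported here. The factors and lists were chosen with earlier results of these data known. Promoters and microRNAs are from RefSeq (GRCm38.p6), and untranslated regions from GENCODE vM39 (GRCm39).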

Additional observations from a re-analysis of the deposited data

Results flagged for a closer look

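A cluster of 37 cells, 35 of them from day 7, was led by Wisp2, Rgs5 and Cthrc1 and received no class name, since it had 10 of the 11 fibroblast markers but none among its leading genes, where Rgs5, a pericyte marker, stood. Its levels lay above the interval of day 0 fibroblast-like cells for 5 factors. Runx1 stood at 151.1 CPM (132 to 172), Sox4 at 147.7 CPM (129 to 169) and Sox9 at 108.6 CPM (92.5 to 127). Twist1 was at 93.75 CPM (78.8 to 111). Against fibroblast-like cells of day 7, Runx1 and Sox4 were lower in this cluster, as those cells had 216 CPM (202 to 230) and 191 CPM (178 to 204). In summed UMIs, Sox9 and Twist1 were above the day 7 levels of 74.1 CPM (66.3 to 82.7) and 70.2 CPM (62.6 to 78.5). The Twist1 intervals nearly met. For Sox9, 1 cell of the cluster held 37 of the 161 UMIs. With CPM averaged over cells the Sox9 order turned, at 77.96 CPM in the cluster against 85.32 CPM on day 7. The median depth of the cluster was 41432 UMIs. Tcf21 was at 19.56 CPM, but 27 of its 29 UMIs lay in 1 cell. Prrx1, at 107 CPM, was below every day of the fibroblast-like class, and Hmga2 had no UMI. Rgs5 was at 656 CPM, Acta2 at 1357 CPM and Pdgfra at 108 CPM, while Myh11 had no UMI. These cells entered none of the comparisons above.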

How the results depend on the processing

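No paired analysis was possible because each day has 1 library. In fibroblast-like cells the count of 4 higher factors on day 7 stayed within 1.5 times under each setting run, but its members changed. Runx1 and Sox4 were among them under all of these, Sox9 under all but the clustering of each library alone. Hmga2 was not called there, nor when CPM was averaged over cells, with cells of at least 1000 UMIs, without cells over 30000 UMIs or without shared barcodes. Without shared barcodes Snai2 was called in addition, and Runx2 too when they were left out after naming. Runx2 was also called with CPM averaged over cells, with no CPM added, with each library clustered alone and with cells over 30000 UMIs left out after naming. No factor was lower than day 0 under any. On day 3 the 2 higher factors became 4 with no CPM added, 0 without cells over 30000 UMIs (left out before or after naming) and 1, Snai2, without both copies of shared barcodes (before or after naming). On day 14 the 3 became 5 with no CPM added and 5 without shared barcodes. In smooth muscle-like cells, day 7 against day 3, the 0 higher became 1 (mean of each cell's CPM, libraries clustered alone, shared barcodes left out before or after naming, cycling cells left out) or 2 (up to 10% mitochondrial UMIs, no cells over 30000 UMIs before or after naming). The 0 lower became 1 (mean of each cell's CPM, no CPM added, no cells over 30000 UMIs, libraries clustered alone, shared barcodes left out). For day 14 against day 3, the 2 lower became 1 (up to 10% mitochondrial UMIs, no cells over 30000 UMIs, shared barcodes left out before naming) and the 0 higher 1 (up to 10% mitochondrial UMIs). For day 14 against day 7, the 2 lower became 0 (up to 10% mitochondrial UMIs, no doublets removed) or 1 (mean of each cell's CPM, median scaling, no cells over 30000 UMIs, all copies kept, shared barcodes left out), and the 0 higher became 1 (up to 10% mitochondrial UMIs). There the log2 ratio of Runx1 went from -1.03 to 0.70 with cells up to 10% mitochondrial UMIs. In endothelial-like cells, day 7 against day 3, the 2 higher became 1 (at least 50 UMIs, no cells over 30000 UMIs) and the 1 lower became 0 (mean of each cell's CPM, no cells over 30000 UMIs, shared barcodes or cycling cells left out). Factors with a higher share of cells on day 7 than on day 0, intervals apart, numbered 2 in thinned cells and 8 without thinning, against 2.78% and 63.6% of all genes. The 5 factors above 2-fold in at least 1 sub-cluster became 3 at resolution 0.3. The cause of each shift was not tested. Shared-barcode, cycling-cell, after-naming and Col2a1-cell settings, and those of the gene lists, were chosen after seeing the data. Tcf21, Hmga2 and Runx2 had the fewest UMIs in non-immune cells (104, 272 and 277), and depth also limits all day 0 values outside the fibroblast-like class.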
